A study of Mus musculus with 4 samples.

Results

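The genes described here are 38 chaperones and stress-response genes of the mouse: 22 that fold, sense or degrade proteins in the endoplasmic reticulum (ER), 14 that act in the cytosol and 2 in mitochondria. They were found by gene symbol, current or older, in the annotation of the array platform. That rule uses no measured value, but the list itself was drawn up with earlier results of these data known. Of 20289 gene symbols with a probe on the array, they account for 37, with 62 of the 45281 probes. No probe carried the symbol Hsp90ab1, a cytosolic HSP90, which was not analysed here. A probe was tested when its detection p-value (against the array's own negative controls) was under 0.1 on both arrays of at least 1 condition, and 31 of the 38 genes had such a probe.

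Expression was measured on 4 Illumina bead arrays of RAW G9 cells, which the labels give under the name of their parent line, RAW264.7 mouse macrophages. RAW G9 is 1 clone of that line, infected with a lentivirus that carries GFP-RelA under the Rela promoter and mCherry with a destabilising PEST sequence under the Tnf promoter, so every array shares both reporters. The LPS arrays (A and B) held cells incubated for 4 h with 10 ng/ml of Salmonella minnesota R595 LPS. The untreated arrays (A and B) held cells given medium alone, with an incubation time that the labels put at 0 h and the study's methods put at that of the treated cells. Each condition had biological duplicates.

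All 9 macrophage markers were detected, as were 0 of 4 T cell, 0 of 5 fibroblast and 0 of 3 hepatocyte markers with a probe, 2 of 4 of B and plasma cells (Ighm and Sdc1), 1 of 4 epithelial (Cdh1) and 2 of 3 of neutrophils (Elane and S100a8). Tnf, which LPS induces in macrophages, rose by 4.46 ± 0.14 (log2 change ± SE, limma adjusted p = 2.17e-06), and Il1b was detected on both LPS arrays and on neither untreated array. The number in the name of each deposited array was read as its slide, which the sample labels do not give. On that reading both untreated arrays shared 1 slide, whereas LPS arrays A and B came from 2 further slides. A slide and the treatment can therefore not be told apart in any value below, those with slide as a random block included. The LPS pair was the less alike: the median absolute log2 difference over tested probes was 0.203 within it and 0.105 within the untreated pair. The arrays also differed in range, since the 95th percentile of the signal was 7.47 and 6.59 times the median on the LPS arrays, and 12.01 and 10.06 times on the untreated arrays. For that reason the changes are given as normalised log2 values (background-corrected, quantile normalised), the deposited signal stands beside them, and the effect of other scalings is given beside each gene that passed and in counts for the rest.

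Proteins that enter the secretory pathway fold in the ER with the help of lumenal HSP70 and HSP90 proteins, lectin chaperones and disulfide isomerases. When unfolded proteins accumulate, the sensors Ern1 (IRE1), Eif2ak3 (PERK) and Atf6 slow translation and raise the transcription of folding enzymes and of the degradation machinery (ER-associated degradation, ERAD), largely through Xbp1, Atf6 and Atf4. The heat shock response is its cytosolic counterpart, in which Hsf1 raises HSP70, small heat shock proteins and their co-chaperones, and activated macrophages, which secrete large amounts of cytokine, are cells in which the ER response has been much studied.

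The letters that these factors recognise can be read in the promoters, and they are shown first because the ER genes with and without them are set side by side below. RefSeq promoters of GRCm38.p6, taken from 250 bases before each start to 50 bases after it, were matched by symbol for 31 of the 38 genes (20 ER, 9 cytosolic, 2 mitochondrial). Both strands were searched for the ER stress response element, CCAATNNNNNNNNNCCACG, which 8 of the ER genes held and 39 of all 32851 promoters held (0.119%), and for its second form, ATTGGNCCACG, held by 2 ER genes and by 12 of all promoters (0.0365%). The 10 genes are listed here with the fixed letters in capitals, 5′ to 3′ on the strand that reads the element.
Hspa5 (chr2:34772025-34772043, + strand): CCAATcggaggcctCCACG
Syvn1 (chr19:6046532-6046550, + strand): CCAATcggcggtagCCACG
Hsp90b1 (chr10:86705533-86705551, + strand): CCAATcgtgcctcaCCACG
Hsp90b1 (chr10:86705638-86705656, - strand): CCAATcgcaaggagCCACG
Calr (chr8:84847075-84847093, + strand): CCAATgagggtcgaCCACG
Canx (chr11:50325800-50325818, - strand): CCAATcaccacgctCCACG
Creld2 (chr15:88819520-88819538, - strand): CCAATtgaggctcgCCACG
Dnajc3 (chr14:118937827-118937845, + strand): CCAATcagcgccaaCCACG
Pdia6 (chr12:17266491-17266509, + strand): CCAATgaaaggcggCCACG
Herpud1 (chr8:94386377-94386387, + strand): ATTGGgCCACG
Dnajb11 (chr16:22857852-22857862, + strand): ATTGGcCCACG
No cytosolic or mitochondrial gene held either form. The element lay 26 bases before the start of Syvn1 and 47 before that of Hspa5, at most 194 before the start in the other genes, and 7 after it in Dnajb11. The shorter core TGACGTG was found in Hspa5 and in 2.01% of all promoters, and the amino acid response element TGATGNAAT in none of the 31 matched genes and in 0.965% of all promoters.

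Whole promoters are shown for the 2 ER genes whose calls, in opposite directions, also passed with slide as a random block (Syvn1, then Sdf2l1, which held no match to any of these letters) and for Hspe1. Capitals mark the ER stress response element in Syvn1, and in Hspe1 they mark 2 overlapping matches to the heat shock element, GAANNTTCNNGAA or TTCNNGAANNTTC, which 0.603% of all promoters held.
Syvn1 (chr19:6046326-6046625, + strand): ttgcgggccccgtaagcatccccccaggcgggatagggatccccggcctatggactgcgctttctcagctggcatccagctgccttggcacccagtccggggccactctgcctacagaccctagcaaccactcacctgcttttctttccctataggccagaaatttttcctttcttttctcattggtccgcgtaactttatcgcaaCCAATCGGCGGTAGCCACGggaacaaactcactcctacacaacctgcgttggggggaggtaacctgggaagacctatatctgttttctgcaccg
Sdf2l1 (chr16:17132334-17132633, - strand): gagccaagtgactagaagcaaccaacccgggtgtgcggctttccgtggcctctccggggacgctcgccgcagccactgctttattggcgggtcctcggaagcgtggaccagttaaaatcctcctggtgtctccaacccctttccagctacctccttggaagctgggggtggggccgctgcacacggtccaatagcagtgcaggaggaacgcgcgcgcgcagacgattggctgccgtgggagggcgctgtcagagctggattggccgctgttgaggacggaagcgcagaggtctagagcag
Hspe1 (chr1:55087898-55088197, + strand): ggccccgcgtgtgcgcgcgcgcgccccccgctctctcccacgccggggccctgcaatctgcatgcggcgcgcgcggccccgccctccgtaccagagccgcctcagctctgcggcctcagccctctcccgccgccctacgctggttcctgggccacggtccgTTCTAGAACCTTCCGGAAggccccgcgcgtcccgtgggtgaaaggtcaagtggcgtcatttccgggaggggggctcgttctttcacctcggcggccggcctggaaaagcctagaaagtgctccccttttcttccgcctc
The promoter of Hspe1 is also that of an annotated start of Hspd1, which is transcribed the other way from the opposite strand. These windows share 285 bases and the same heat shock letters. The window of another Hspd1 start shares 4 bases with that of Hspe1 and held no heat shock element. Hsph1 held a heat shock element 15 bases after its start. No other cytosolic gene with a promoter held these letters, and Hspa1a, Hspa1b, Dnajb1, Bag3 and Hspb1 were among those without. A match says only that the letters are there, and whether a factor bound them was not measured. The lack of a match says only that these exact letters were not in the window.

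Taken over the 31 tested genes, 3 rose with LPS (Syvn1, St13 and Hspe1), 6 fell (Bag3, Sdf2l1, Dnajb1, Pdia4, Pdia3 and Eif2ak3) and 22 did not pass an adjusted p of 0.05. Over all 9729 genes tested, 13.7% were called higher and 21.4% lower. The members' median log2 change was -0.20, within a range of -1.14 to 0.74, and the median of all genes was -0.09. The ER genes gave 1 rise and 4 falls among 20 tested (median -0.20), and the cytosolic and mitochondrial genes 2 rises and 2 falls among 11 (median 0.05). The normalised values of the conditions did not overlap in 22 of the 31 genes, against 70.7% of all genes in either direction.

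**Figure D1:**
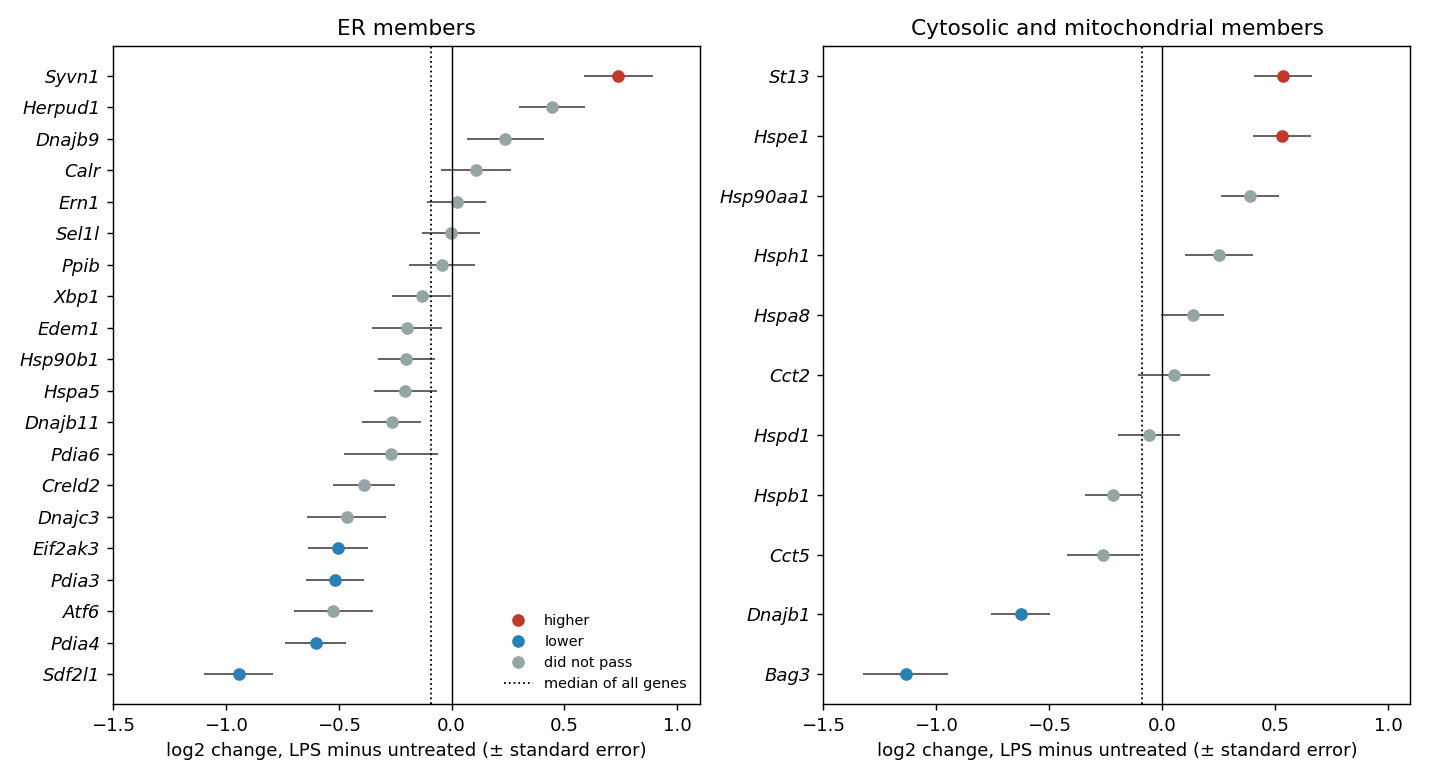
Log2 change of each tested gene, LPS minus untreated, as a point with its standard error from limma; red and blue mark genes that passed an adjusted p of 0.05, and the dotted line is the median of all genes (-0.09). Bag3 (-1.14) and Sdf2l1 (-0.94) lie farthest to the left and Syvn1 (0.74) farthest to the right, while under median scaling Syvn1 did not pass and St13 and Hspe1 changed sign.

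The ER folding enzymes gave 0 rises and 3 falls among the 12 tested, with a median change of -0.27, and at an unadjusted limma p under 0.05 they gave 0 rises and 5 falls, where 18.1% of all genes were higher and 28.4% lower at that threshold. Sdf2l1, a lumenal partner of the BiP co-chaperone Dnajb11, had the largest of these falls. Its signal was 824 and 716 on LPS arrays A and B and 2934 and 1964 on untreated arrays A and B, or 9.93 and 9.90 against 11.02 and 10.69 on the normalised log2 scale. Both LPS arrays lay below both untreated arrays on either scale (89.0% of all genes did so on the signal). The untreated arrays were the less alike. The change was -0.94 ± 0.15 (SE, limma adjusted p = 0.00381), which put LPS at 52.0% of untreated, and it passed under every alternative run, with slide as a random block (adjusted p = 0.0136) and without either untreated array (0.0433 without A and 0.0150 without B).

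Pdia4 and Pdia3, disulfide isomerases of the ER, also fell. Pdia4 gave 9.13 and 9.21 on the LPS arrays and 9.85 and 9.70 on the untreated arrays (change -0.60 ± 0.14, adjusted p = 0.0140). It was also called lower under each of the other scalings. Pdia3, which acts on glycoproteins held by the lectin chaperones, gave 11.85 and 11.91 against 12.41 and 12.38 (change -0.52 ± 0.13, adjusted p = 0.0204). The conditions did not overlap in either gene, and the signal fell on both LPS arrays, from 7111 and 5886 to 3137 and 3038 in the case of Pdia3. Over all genes, 70.7% did not overlap in either direction, and 89.0% had a lower signal on both LPS arrays. Neither passed without untreated array A (adjusted p = 0.156 for Pdia4 and 0.175 for Pdia3) or B (0.0897 and 0.169), nor with slide as a random block (0.0509 and 0.0731), and Pdia3 did not pass when arrays were scaled to the median of tested probes (change -0.18, adjusted p = 0.38).

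The other 9 tested folding genes did not pass. Hspa5 (BiP), the lumenal HSP70 to which all 3 sensors respond, was read by a single dim probe, with signals of 126 and 120 on the LPS arrays and 172 and 157 on the untreated arrays. On the normalised scale these were 5.66 and 5.45 against 5.74 and 5.77, a change of -0.20 ± 0.14 (adjusted p = 0.296). The conditions did not overlap, and the difference was smaller than any of those that passed. Hsp90b1, the lumenal HSP90, gave 11.54 and 11.56 against 11.74 and 11.76, with little spread within each condition, and a change of -0.20 ± 0.13 (adjusted p = 0.266). Hsp90b1 passed as lower with the deposited log2 table (change -0.21, limma adjusted p = 0.0361) and under median scaling (-0.73, 0.00324). It did not pass without background correction (-0.19, 0.0513).

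The J-domain co-chaperones of BiP did not share a sign. Dnajc3 changed by -0.46 (adjusted p = 0.0827), Dnajb11 by -0.27 (0.161) and Dnajb9 by 0.24 (0.320). Creld2, an ER stress-responsive protein, had a pair of probes that gave -0.39 each (adjusted p = 0.0684 and 0.0656). Pdia6, a further disulfide isomerase, changed by -0.27 on its brighter probe (adjusted p = 0.360) and by -0.43 on the other (0.0741), with LPS array B above LPS array A on the first and below it on the second. Calr, a lectin chaperone, changed by 0.11 (adjusted p = 0.631) and Ppib, the ER prolyl isomerase cyclophilin B, by -0.04 (0.850), and in both the conditions overlapped. The lectin chaperone Canx and the secreted ER protein Manf had 1 probe each that was not detected on both arrays of either condition, so no change is given for them.

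**Figure D2:**
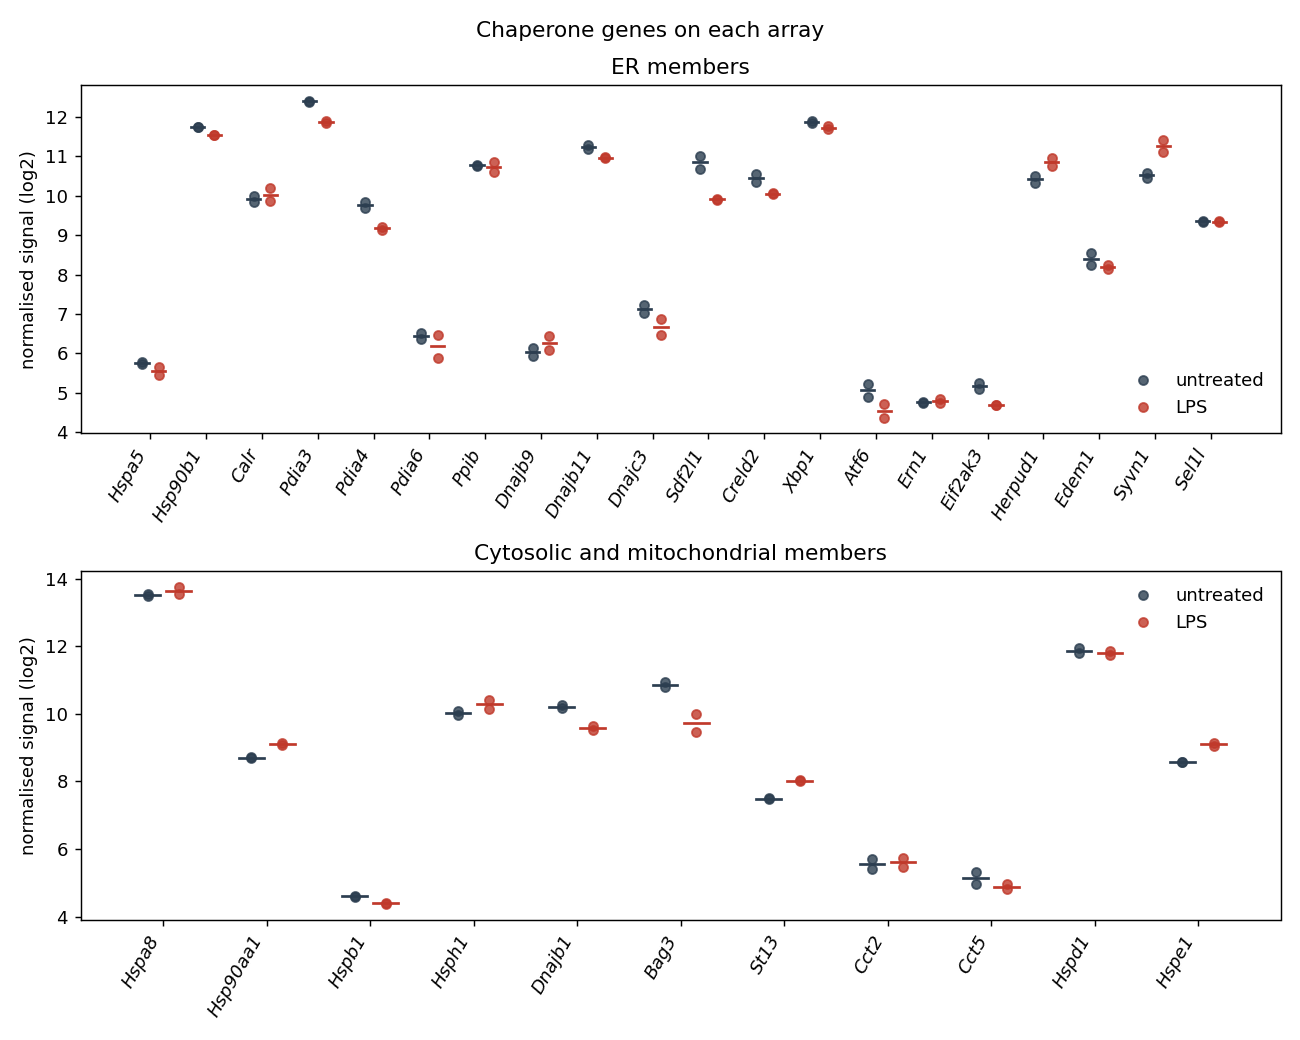
Normalised log2 signal of each tested gene on each array, as 1 point per array with a bar at the mean of the 2 arrays of a condition; ER genes are in the upper panel and cytosolic and mitochondrial genes in the lower. The LPS points of Sdf2l1 (9.93 and 9.90) and Bag3 (9.98 and 9.47) lie below the untreated points, those of Syvn1 (11.41 and 11.10) above, and the points of Sel1l, Ppib and Hspd1 overlap.

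Among the 4 genes of the unfolded protein response itself, 0 rose and 1 fell (0 and 2 at an unadjusted limma p under 0.05, against 18.1% and 28.4% of all genes). Eif2ak3 (PERK), the kinase that phosphorylates the translation factor eIF2α, gave 4.68 and 4.68 on the LPS arrays and 5.11 and 5.26 on the untreated arrays, a change of -0.50 ± 0.13 (adjusted p = 0.0260). Its signals were 109 and 109 against 142 and 137, close to the level of undetected probes. Without background correction the change was -0.13 (adjusted p = 0.135), and scaled to the median of tested probes it was 0.06 (0.804). A second Eif2ak3 probe, not tested because it was detected on only 1 LPS array, gave 4.54 and 4.69 against 4.40 and 4.52. The fall also did not pass without either untreated array (adjusted p = 0.188 and 0.299) or with slide as a random block (0.0919).

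The remaining genes of this group did not pass. Xbp1, the transcription factor whose mRNA IRE1 splices, was bright on every array, with 11.77 and 11.70 against 11.89 and 11.84 (change -0.13 ± 0.13, adjusted p = 0.466), and the array gives no measure of its splicing. Ern1 (IRE1), the splicing nuclease, changed by 0.02 (adjusted p = 0.914), with signals between 110 and 129 on all arrays. Atf6, the sensor that is cleaved in the Golgi, gave 4.71 and 4.37 against 5.22 and 4.90 (change -0.52 ± 0.18, adjusted p = 0.0586), and its probe was detected on both untreated arrays and on 1 LPS array.

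Of the 4 ERAD genes, 1 rose and 0 fell (2 and 0 at an unadjusted limma p under 0.05). Over all genes, 13.7% were called higher and 21.4% lower, and 18.1% and 28.4% at the unadjusted threshold. Syvn1 (HRD1), the ubiquitin ligase of the ER membrane, gave 11.41 and 11.10 on the LPS arrays and 10.47 and 10.57 on the untreated arrays, and both LPS arrays lay above both untreated arrays. Its change of 0.74 ± 0.15 (adjusted p = 0.0105) was the highest among the members. The deposited signals, 2306 and 1677 against 2080 and 1820, overlapped, so the rise is one relative to the other probes of each array. It passed with slide as a random block (adjusted p = 0.0280), and did not pass without untreated array A (0.0912) or B (0.0728) or under median scaling (change 0.13, adjusted p = 0.604).

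Herpud1, a membrane protein that joins HRD1 complexes, lay next to the threshold, with 10.76 and 10.97 against 10.33 and 10.51 on its brighter probe (change 0.45 ± 0.15, adjusted p = 0.0530) and a change of 0.39 on the other (0.0516). The conditions did not overlap on either probe. Herpud1 passed under 8 of the alternatives, among them no background correction (adjusted p = 0.0347), the deposited log2 table (0.0402) and the fit without LPS array A (0.0105), and under median scaling its change was -0.21 (0.346). Sel1l, the adaptor of HRD1, gave 9.37 and 9.33 against 9.34 and 9.36 on its brighter probe, where the conditions overlapped (change 0.00 ± 0.13, adjusted p = 0.991). On another tested probe LPS array A stood apart, with a signal of 165 against 120 on LPS array B and 163 and 161 on the untreated arrays (change 0.42 ± 0.36, adjusted p = 0.404). Edem1, a lectin that delivers misfolded glycoproteins to ERAD, changed by -0.20 (adjusted p = 0.360), and the conditions overlapped.

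Set against the promoters, the 9 tested ER genes with an ER stress response element of either form gave 1 rise (Syvn1) and 0 falls, with a median change of -0.20 and a range of -0.46 to 0.74. The 10 tested ER genes with a promoter and no such element gave 0 rises and 4 falls (Pdia3, Pdia4, Sdf2l1 and Eif2ak3), with a median of -0.17 and a range of -0.94 to 0.24. Over all genes tested, 13.7% were called higher and 21.4% lower. The split of the falls depended on the processing. Without background correction Dnajb11 and Creld2, which held an element, were also called lower, and Eif2ak3 was not. With the deposited log2 table Hsp90b1, Dnajb11 and Creld2 were called lower, and Eif2ak3 was not. Creld2 was also called lower with an intensity trend and robust variance, and Dnajc3 with the replicate block or scaling to tested probes. Under median scaling every tested gene with an element but Syvn1 and Herpud1 was called lower, and every tested gene without one but Ern1. The share called lower over all genes was 62.7% there. The medians lay close together, and the difference between these groups was not tested.

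In the cytosol, 1 of the 9 tested genes rose and 2 fell, against 13.7% and 21.4% of all genes, with a median change of 0.05. Bag3, a co-chaperone that releases nucleotide from HSP70 and takes part in chaperone-assisted autophagy, fell the most of all members. Its signal was 849 and 549 on the LPS arrays and 2542 and 2296 on the untreated arrays, and its normalised values were 9.98 and 9.47 against 10.79 and 10.93. The conditions did not overlap, although the LPS arrays differed from each other more than in the other 8 genes that passed. The change was -1.14 ± 0.19 (adjusted p = 0.00412), or 45.5% of untreated, and it passed under every alternative run (adjusted p = 0.00655 with slide as a random block, 0.0162 without untreated array A and 0.0394 without B).

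Dnajb1, the HSP40 that delivers substrates to HSP70, also fell. It gave 9.64 and 9.54 on the LPS arrays and 10.26 and 10.16 on the untreated arrays, where the signals were 683 and 573 against 1833 and 1409. The change was -0.63 ± 0.13 (adjusted p = 0.0111), and both LPS arrays lay below both untreated arrays on either scale. Dnajb1 was also called lower under each of the other scalings. It passed with slide as a random block (adjusted p = 0.0399) but not without untreated array A (0.129) or B (0.0955).

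St13 (Hip), a co-chaperone that stabilises HSP70 in its ADP-bound state, rose on the normalised scale and reversed under median scaling. It gave 8.00 and 8.04 on the LPS arrays and 7.51 and 7.47 on the untreated arrays, a change of 0.54 ± 0.13 (adjusted p = 0.0177). The deposited signal, 273 and 248 against 369 and 302, was lower on both LPS arrays, and the median-scaled change was -0.34 (adjusted p = 0.146). It did not pass with slide as a random block (adjusted p = 0.0644) or without untreated array A (0.144) or B (0.189).

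The inducible HSP70 genes were not detected. Hspa1a had 3 probes and Hspa1b 2, with signals between 94.4 and 106 on the LPS arrays and between 104 and 122 on the untreated arrays, and none had a detection p under 0.1 on any array. These near-identical genes are the classical targets of Hsf1, which was itself read by 1 probe that was not detected on any array. Dnaja1, a further HSP40, had 2 probes, of which 1 was detected on LPS array A alone.

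The remaining tested genes of the cytosol did not pass. Hspa8, the constitutive HSP70, was among the brightest probes of the array, with signals of 12654 and 10674 on the LPS arrays and 13806 and 12326 on the untreated arrays. Its change was 0.14 ± 0.14 on that probe (adjusted p = 0.491) and 0.35 (0.350) and 0.01 (0.968) on its other probes. Hsp90aa1, the inducible form of cytosolic HSP90, had tested probes of opposite sign: the brighter gave 9.07 and 9.12 against 8.70 and 8.72 (change 0.39 ± 0.13, adjusted p = 0.0542) and the dimmer 5.33 and 5.36 against 5.51 and 5.80 (change -0.30 ± 0.15, adjusted p = 0.155). Neither probe passed, and the conditions did not overlap on either. The brighter probe passed as higher under 7 alternatives, among them no background correction (adjusted p = 0.0135), the deposited log2 table (0.0136) and the fits without LPS array A (0.0227) or B (0.0419), and as lower under median scaling (change -0.47, adjusted p = 0.0439).

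Hsph1, an HSP110 that exchanges the nucleotide of HSP70, changed by 0.25 (adjusted p = 0.235). Cct2 and Cct5, subunits of the chaperonin that folds actin and tubulin, changed by 0.05 (adjusted p = 0.828) and -0.26 (0.255), on probes with signals of 112 to 169. Hspb1, a small heat shock protein, was detected on both untreated arrays (signals of 125 and 119) and on neither LPS array (104 and 104). Its change of -0.22 (adjusted p = 0.234) has only a bound on the LPS side, which lies at the untreated level, so no fold is given.

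Of the mitochondrial pair, Hspe1 rose and Hspd1 did not pass. Hspe1, the lid of the mitochondrial chaperonin, gave 9.14 and 9.04 on the LPS arrays and 8.56 and 8.56 on the untreated arrays (change 0.53 ± 0.13, adjusted p = 0.0195), while its median-scaled change was -0.33 (adjusted p = 0.165) and its signal was lower on both LPS arrays (501 and 418 against 664 and 539). Hspd1, the barrel that Hspe1 closes, gave 11.75 and 11.87 against 11.79 and 11.94, overlapping, on its brighter probe (change -0.06 ± 0.14, adjusted p = 0.772). A second Hspd1 probe gave 10.02 and 9.78 against 10.55 and 10.25 (change -0.50 ± 0.16, adjusted p = 0.0520), without overlap. These genes share the promoter printed above at an annotated start of Hspd1, and the difference between their changes was not tested. Hspe1 did not pass with slide as a random block (adjusted p = 0.0682) or without untreated array A (0.154) or B (0.180).

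The direction of several calls rested on the scaling. The deposited signal was lower on both LPS arrays than on both untreated arrays in 29 of the 31 genes, all but Syvn1 and Hspa8, and in 89.0% of all genes. The median ratio of LPS to untreated signal was 0.658 over the members and 0.692 over all genes. Scaling each array to the median of all its 45281 probes, of which 17211 were tested, moved the median change of all genes to -0.70 and gave 0 rises and 24 falls among the members (all tested but Syvn1, St13, Hspe1, Herpud1, Ern1, Hspa8 and Hspb1), where 4.95% of all genes were called higher and 62.7% lower. Scaling to the median of the tested probes moved it to 0.10 and gave 7 rises (Syvn1, St13, Hspe1, Herpud1, Ern1, Hspa8 and Hspb1) and 5 falls (Bag3, Sdf2l1, Dnajb1, Pdia4 and Dnajc3), against 31.5% and 19.3% of all genes. The call of Hspb1 there has a probe that was detected on neither LPS array, so it gives no size of change.

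Relative to the median of all genes, each of the called members stayed on its own side. The 5 scalings count as 4 here, since both kinds of median scaling give the same relative values by construction. Over them Bag3 lay between -1.16 and -1.01, within the lowest 3.91% of all genes, and Sdf2l1 between -0.95 and -0.84, within the lowest 6.76%. Dnajb1 lay between -0.68 and -0.53, Pdia4 between -0.71 and -0.49 and Pdia3 between -0.48 and -0.28. On the other side Syvn1 lay between 0.75 and 0.83, Herpud1 between 0.47 and 0.54, St13 between 0.36 and 0.63 and Hspe1 between 0.37 and 0.62, so that these 4 were above the median of all genes under each. Eif2ak3 ranged from -0.41 to -0.04.

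**Figure D3:**
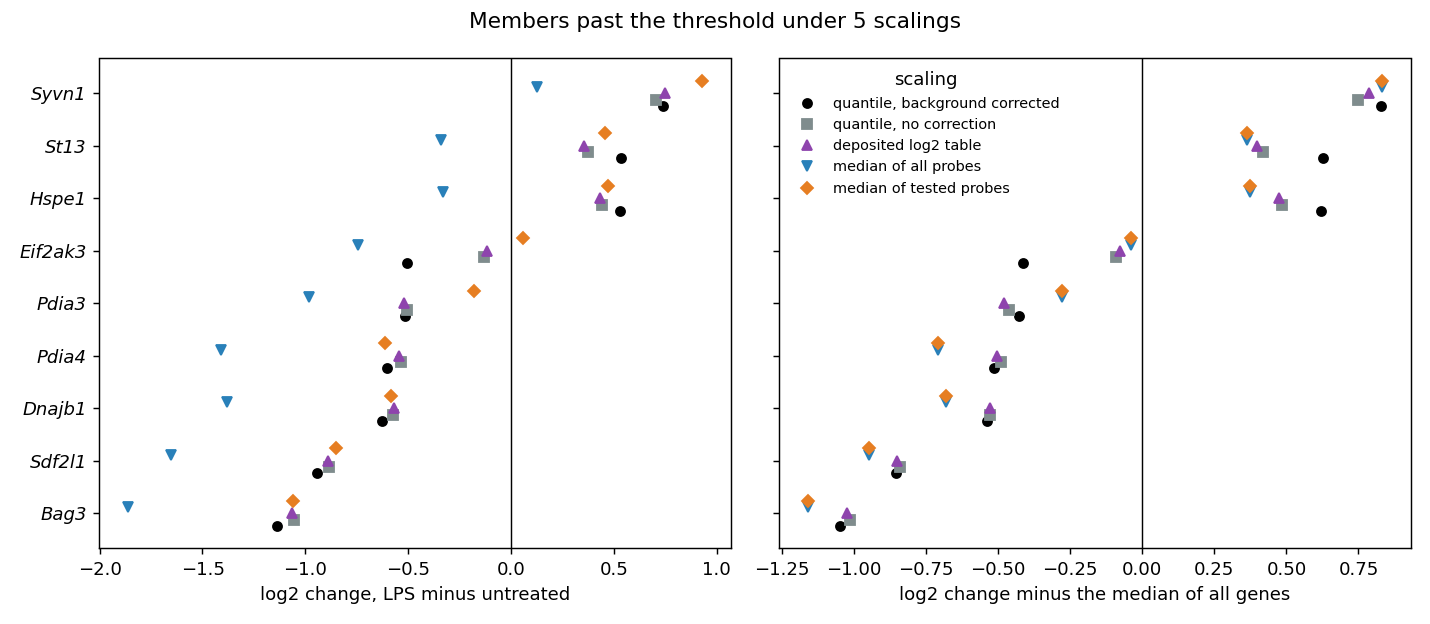
Log2 change of the 9 genes that passed, under 5 ways of scaling the arrays, as measured (left) and relative to the median of all genes (right). On the left St13, Hspe1 and Eif2ak3 cross 0 with the scaling (St13 falls to -0.34 and Hspe1 to -0.33 under median scaling of all probes), and on the right each gene stays on its own side of 0.

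Of the 38 genes, 29 were detected on both LPS arrays and 31 on both untreated arrays. Detection was nearly the same in both conditions, and the 2 genes detected on both untreated arrays but not on both LPS arrays were Atf6 (on 1 LPS array) and Hspb1 (on neither), each with signals near background. In RNA from a whole culture, fewer expressing cells and less RNA per cell cannot be told apart.

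Other genes of the same pathways were taken from lists chosen with earlier results of these data known. The integrated stress response is the branch downstream of PERK and related kinases that runs through Atf4. Its list, which also holds Eif2ak2, a related kinase, gave 10 rises and 0 falls among 13 tested, with a median change of 1.08. The background shares of 13.7% and 21.4% apply to each list. Ppp1r15a (GADD34), which directs the removal of the phosphate from eIF2α, gave 9.37 and 9.17 on the LPS arrays and 6.58 and 6.75 on the untreated arrays, a change of 2.61 ± 0.14 (adjusted p = 2.29e-05). Nupr1, a stress-induced chromatin protein, changed by 2.44 (adjusted p = 1.98e-05) and the transcription factor Atf3 by 2.44 (6.25e-05). The signals of Atf3, 934 and 1058 against 472 and 347, were higher on both LPS arrays.

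The other 7 rises were Eif2ak2 (PKR), an interferon-induced kinase of eIF2α, Chac1, Trib3, Ppp1r15b, Sesn2, Ddit3 and Atf4, of which Atf4 changed by 0.80 (adjusted p = 0.00524). A second Trib3 probe gave 0.40, well under the 1.44 of the first. Asns, Cebpb and Cebpg, with changes of 0.42, 0.04 and -0.04, did not pass. Under median scaling the list gave 7 rises and 1 fall (Cebpg), with a median of 0.57. Atf4 and Ddit3 were not among the rises there, nor without either untreated array. The median was 1.09 without untreated array A and 1.04 without B, and slide as a random block gave 10 rises.

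The other ER lists gave few rises. Other ER folding and glycosylation genes gave 1 rise and 11 falls among 37 tested, with a median of -0.13. The chaperone-like Erp29 had the largest fall, -0.999 ± 0.176 (adjusted p = 0.00531), followed by Ero1b (-0.71), an oxidase of the disulfide isomerases, and Dnajc10 (-0.70), a disulfide reductase whose second probe gave -0.05. The rise was Txndc12 (0.46), a thioredoxin-like protein. Under median scaling the list gave 0 rises and 30 falls, and without untreated array A or B 0 rises and 1 fall. Other ERAD genes gave 0 rises and 1 fall (Fam8a1, -0.86, with a second probe at 0.49) among 18, and other sensors and factors 1 rise (Bak1, 0.51) and 1 fall (Creb3l2, -0.58) among 12.

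Among other cytosolic chaperones, 2 of 27 rose (Dnaja2, 0.57, and Hspa4, 0.45) and 7 fell, with a median of -0.18. Hspb6, a small heat shock protein, fell by 1.40 on the log2 scale (adjusted p = 0.000269), with 7.17 and 7.12 on the LPS arrays and 8.52 and 8.56 on the untreated arrays. Both arrays of each condition lay within 0.1 of each other. Dnajc2 (-0.60) and Bag5 (-0.58) were next. None of 12 chaperonin and prefoldin genes passed in either direction by limma (1 higher and 2 lower at an unadjusted p under 0.05, against 18.1% and 28.4% of all genes), while among mitochondrial chaperones and proteases 0 of 13 rose and 3 fell (Htra2, Dnaja3 and Afg3l2, with changes of -0.69, -0.45 and -0.44). Of the 2 heat shock factor genes tested, Hsbp1, a binder of Hsf1, fell (-0.53). Under median scaling, other cytosolic chaperones gave 0 rises and 20 falls. Over all 8 lists there were 14 rises and 24 falls, against 8 and 3 without untreated array A, 8 and 2 without B, and 10 and 9 with slide as a random block. Hspb6 and Erp29 fell under each of these.

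**Figure D4:**
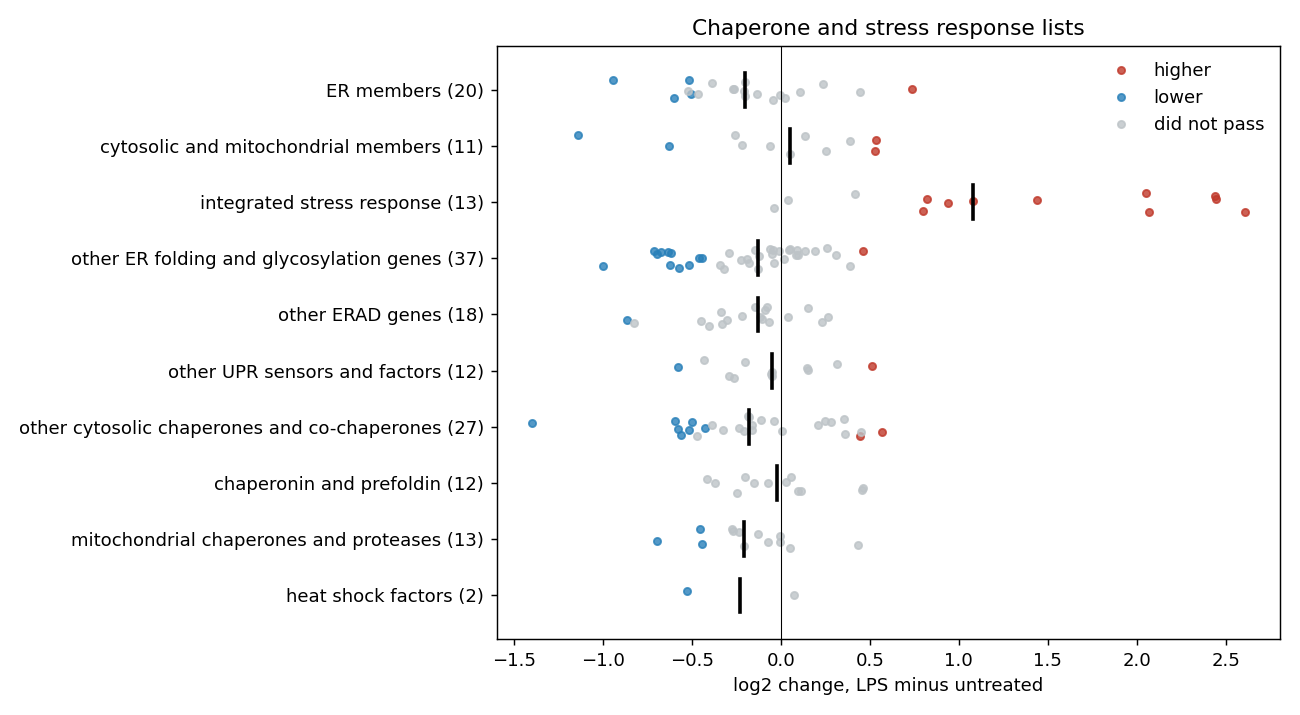
Log2 change of each tested gene in the 8 wider lists and in the members, pooled into an ER list and a cytosolic and mitochondrial list, with the number tested in brackets; a point is a gene, red and blue mark genes past an adjusted p of 0.05, and the bar is the list's median. The median of the integrated stress response list is 1.08 (0.57 under median scaling), and the medians of the other 9 lists drawn lie between -0.23 and 0.05.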

How the data were processed

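The authors extracted signals from the scanned bead arrays with GenomeStudio 2011.1. The deposited single-array files hold the linear signal intensity of each probe without background subtraction, its detection p-value and its bead number, and the deposited series table holds the authors' quantile-normalised log2 values, used as an alternative. Probes were named from the platform annotation, updated through the RefSeq table of GRCm38.p6: 35784 of 45281 had a symbol (28620 matched by Entrez identifier, 2637 by accession, 2128 by symbol, 2343 by older symbol, 56 kept as given). The neqc function (limma 3.58.1 under R 4.3.3, offset 16) corrected the intensities for background, quantile normalised them and took log2, and the offset understates the changes of dim probes. The 17211 probes whose detection p was under 0.1 for both arrays of either condition were fitted by lmFit and eBayes, LPS minus untreated, all 4 arrays, with Benjamini-Hochberg adjustment over all of them and a threshold of 0.05. A gene was represented by its brightest tested probe. The number of arrays limits the precision.

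The genes, the lists and the rules were chosen with earlier results of these data known. All 38 members were named, and from each wider list up to 3 of the largest rises and falls that passed. Other genes of a list were named after their values were seen. Signals were planned for members with a log2 change of at least 1 or with discordant probes, and are given for others as well. Alternatives were the background correction, the scaling, the detection threshold, an intensity trend, slide and replicate blocks, the choice of probe and leaving out each array. For the slide block, duplicateCorrelation of limma returned no value with 4 arrays, so its consensus correlation was computed in closed form from the untreated pair, which shares a slide, and the LPS pair, which does not. It therefore also takes in any difference in spread between the conditions. Protein features that had been planned were not analysed here.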

Additional observations from a re-analysis of the deposited data

How the results depend on the processing

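Bag3 and Sdf2l1 passed under every alternative run, and the other 7 called genes lost the call under at least 1. Median scaling of all probes gave 819 probes higher and 10095 lower (2332 and 3273 in the main analysis), 0 ER genes higher and 17 lower, and 0 cytosolic and mitochondrial genes higher and 7 lower. It reversed the sign of 7 genes that passed either there or in the main analysis: Calr (-0.65), Dnajb9 (-0.50), Hsp90aa1 (-0.47), Hsph1 (-0.48), St13 (-0.34), Cct2 (-0.52) and Hspe1 (-0.33). Herpud1 (-0.21), Ern1 (-0.15) and Hspa8 (-0.06) changed sign without passing in either. Scaling to tested probes gave 6002 probes higher, 3 ER genes and 4 cytosolic and mitochondrial genes higher, and by the same rule reversed Eif2ak3 (0.057) and Hspb1 (0.55, not detected with LPS). Hspa5, Hsp90b1, Ppib, Xbp1, Atf6, Cct5 and Hspd1 changed sign without passing in either, to values between 0.0059 and 0.25. No background correction, the deposited log2 table, detection thresholds of 0.05 and 0.01, and an intensity trend with robust variance each gave 2 ER genes higher, the added gene being Herpud1. ER genes called lower numbered 5 without background correction, 6 with the deposited log2 table and 5 with the intensity trend, against 4 in the main analysis. Creld2 was added in each of these, Dnajb11 without background correction and with the deposited table, and Hsp90b1 with the deposited table. Eif2ak3 lost its call without background correction and with the deposited table. Slide as a random block (consensus correlation 0.548, computed in closed form from 1 pair of arrays within a slide and 1 between slides) gave 2017 probes lower, 1 ER gene lower and 0 cytosolic and mitochondrial genes higher. Leaving out each array in turn gave 1085 to 4032 probes higher and 1013 to 4859 lower, 0 to 2 ER genes higher and 1 to 6 lower, and 0 to 4 cytosolic and mitochondrial genes higher and 1 to 2 lower, with the fewest calls without an untreated array.

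With the replicate letters as a replicate block, 2639 probes were higher and 3689 lower, and 2 ER genes were higher and 6 lower. The added falls were Dnajc3 and Atf6, and the added rise was Herpud1. The letters share no stated batch, and the deviations of same-lettered arrays correlated at 0.15. Over the alternatives, members detected numbered 26 to 31 with LPS and 27 to 32 untreated. The cause of these shifts was not tested. Dim probes (Eif2ak3, Atf6, Ern1, Hspb1, Cct5) limit what can be read, since their signals lay near those of undetected probes.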
